A study of Mus musculus with 3 samples.

Results

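Limb-like mesenchyme transcription factors are here the genes Prrx1, Prrx2, Alx1, Alx4, Pitx1, Shox2, Twist1 and Twist2, and they were followed through every probe set that the platform annotation gives to exactly 1 of these symbols. This gave 16 probe sets for 8 genes, out of 45101 probe sets on the array and 18193 genes named. RNA came from the genital tubercle, from which penis or clitoris develops, of embryos with a male label, dissected on embryonic day 14 (Theiler stage 22). Females of the FVB/N strain had been mated to males with the SMAA/EYFP transgene, a yellow fluorescent reporter named for smooth muscle actin, and its fluorescence guided the dissection. All 3 samples form 1 group, carry the same transgene and strain labels, were not pooled and were each hybridised to 1 array, so no treatment or control exists. They differ in 1 label, the limb landmark, with fingers visible in replicate 3, against indented footplate borders in replicates 1 and 2.

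Prrx1, Prrx2, Alx1, Alx4, Pitx1 and Shox2 encode paired-type homeodomain proteins, which bind short DNA sites rich in A and T. Twist1 and Twist2 encode basic helix-loop-helix proteins, which bind E-box sites as dimers with E-proteins and are held back by the Id proteins, which lack a DNA-binding region. All 8 genes are known from limb bud, body wall or facial mesenchyme, the loose embryonic tissue under the epithelium, and the genital tubercle grows, like a limb, from such mesenchyme under an epithelial signalling centre.

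RefSeq start-site sequences (assembly GRCm38.p6, 250 bases before to 50 bases after a start) were available for 5 of the 8 genes. Those of Shox2, Twist2 and Prrx1 are shown because each of these genes had a probe set that read over 1.5-fold higher in replicate 3 than in both other samples, and that of Twist1 because it is the close relative of Twist2. Capitals mark the homeodomain core TAATTA and the TATA box TATAAA, searched on both strands together with the E-box CANNTG and the site TAATCC, which Pitx proteins bind. Some genes have further start sites, which these windows do not cover.
Shox2, chr3:66981722-66982021, minus strand: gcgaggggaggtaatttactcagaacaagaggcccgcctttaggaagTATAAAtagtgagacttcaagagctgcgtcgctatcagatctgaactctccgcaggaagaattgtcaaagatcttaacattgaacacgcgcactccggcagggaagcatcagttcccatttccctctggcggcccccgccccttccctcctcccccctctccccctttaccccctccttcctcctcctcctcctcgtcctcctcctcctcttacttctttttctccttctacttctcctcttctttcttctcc
Twist2, chr1:91801211-91801510, plus strand: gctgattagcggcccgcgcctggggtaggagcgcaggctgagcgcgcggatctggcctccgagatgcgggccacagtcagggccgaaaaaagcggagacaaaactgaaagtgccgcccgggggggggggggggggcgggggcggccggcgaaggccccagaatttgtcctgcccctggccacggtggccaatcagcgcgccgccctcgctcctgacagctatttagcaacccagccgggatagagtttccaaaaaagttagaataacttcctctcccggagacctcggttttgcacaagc
Prrx1, chr1:163313601-163313900, minus strand: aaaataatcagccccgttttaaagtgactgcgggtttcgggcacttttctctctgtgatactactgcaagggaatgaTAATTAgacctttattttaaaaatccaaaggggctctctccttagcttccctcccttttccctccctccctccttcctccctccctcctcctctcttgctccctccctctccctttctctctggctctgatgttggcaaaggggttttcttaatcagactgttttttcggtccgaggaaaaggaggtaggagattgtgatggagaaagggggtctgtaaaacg
Twist1, chr12:33957421-33957720, plus strand: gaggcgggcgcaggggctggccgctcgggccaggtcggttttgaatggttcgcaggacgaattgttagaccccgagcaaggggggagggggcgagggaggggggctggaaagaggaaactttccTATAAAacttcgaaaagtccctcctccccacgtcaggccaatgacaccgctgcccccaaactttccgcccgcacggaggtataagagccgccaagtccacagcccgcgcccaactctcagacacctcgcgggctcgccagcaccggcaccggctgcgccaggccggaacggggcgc
The Prrx1 window held 1 TAATTA, at position -173 from the start, a motif present in 5.29% of 32851 windows of this length. Shox2 and Twist1 each held 1 TATAAA, at positions -203 and -126 from the start, and 13.6% of all windows hold one. The 5 windows held no CANNTG, which 72.3% of all windows contain, and no TAATCC, which 7.06% contain. The Twist2 and Prrx2 windows held none of the 4 motifs. GC content was 53.3% in Shox2, 64.7% in Twist2, 47.7% in Prrx1, 66.0% in Twist1 and 70.3% in Prrx2, against a median of 52.7% over all windows. These matches are letters in a window and not sites shown to be bound.

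Levels below are deposited signals in linear intensity units. Background was taken per sample from 81 probe sets for chemosensory receptors (olfactory, vomeronasal, bitter taste), genes of sensory epithelia, as their 95th percentile, at 197, 136 and 253 in replicates 3, 1 and 2. Log2 differences, folds and SDs of log2 values were computed after the samples had been aligned on their medians. Signals of different probe sets depend on their own probes. They were ranked only to choose the brightest probe set of a gene and the genes named from the lists. Sums over markers and ratios of Prrx1 probe sets were compared between samples only. In bulk tissue, fewer cells of a type and less RNA per cell cannot be told apart.

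Features of the libraries that bear on every comparison are given first. Xist, the RNA of the inactive X chromosome of female cells, read 61883 in replicate 3, against 8.05 and 118 in replicates 1 and 2. The Y-linked gene Eif2s3y read 37.9 in replicate 3, against 4384 and 3738 in replicates 1 and 2, so the library labelled replicate 3 goes against its male label. The array's control probe sets at the 3′ and 5′ ends of beta-actin gave a 3′ to 5′ ratio of 4.42 in replicate 3, against 7.38 in replicate 1 and 2.21 in replicate 2. For Gapdh the ratio was 14.1 in replicate 3, against 21.5 in replicate 1 and 14.9 in replicate 2. Replicate 1 thus had the largest 3′ excess in both controls.

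By its brightest probe set, each of the 8 genes was above background in 3 of 3 samples, where 60.5% of all genes were. As these genes were chosen with earlier results of these data known, the shares here are a description and not a test. Of the 16 probe sets, 12 were above background in 3 of 3 samples, against 48.0% of all probe sets. Another 3 were above it in no sample, namely 1 each of Prrx1, Pitx1 and Shox2, and 1 of Alx1 was above it in replicates 1 and 2. Here 4 genes had a single probe set (Prrx2, Alx4, Twist1 and Twist2), and for the other 4 the probe sets differed in whether they passed. Without replicate 3, 13 of the 16 probe sets were above background in both remaining samples.

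**Figure D1:**
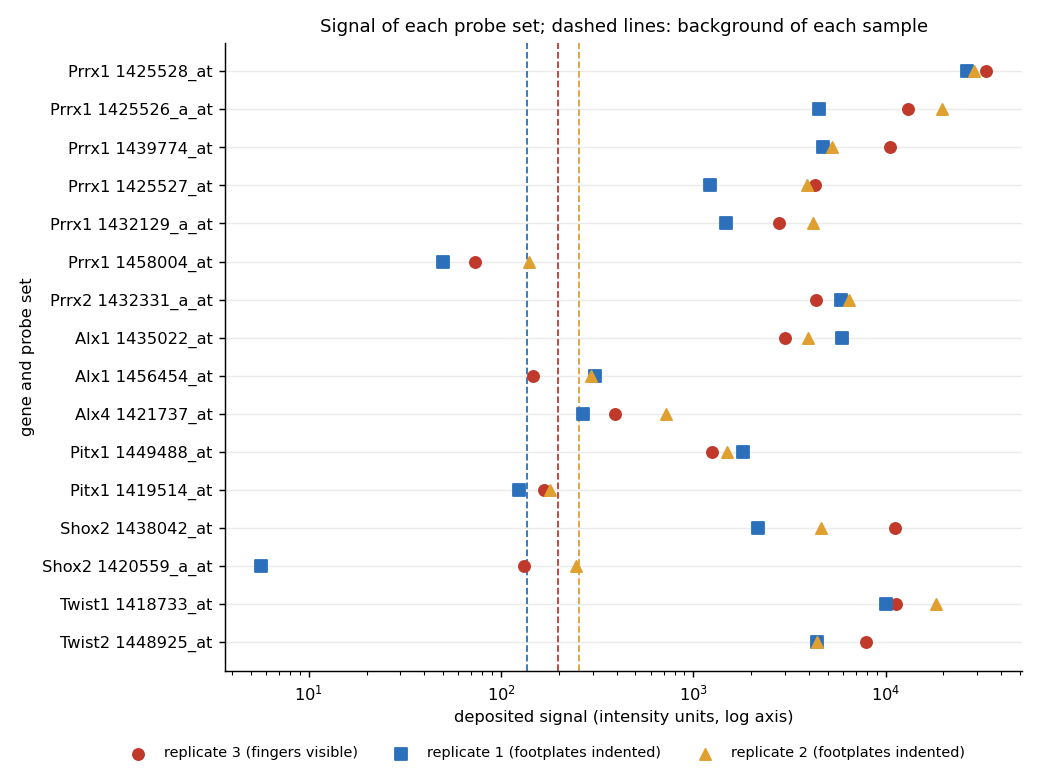
Deposited signal on a log axis for each of the 16 probe sets, 1 point per sample, with the background of each sample as a dashed line. The 12 probe sets above background in 3 of 3 samples lie to the right of the lines, and the second probe sets of Pitx1 and Shox2 and 1 of Prrx1 lie below the background of every sample.

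Prrx1, a factor required for limb and skull mesenchyme, read 33365 in replicate 3, against 26377 and 28842 in replicates 1 and 2, on its brightest probe set (1425528_at). The values lay close together, with a mean of 29528 ± 3544 (SD, n = 3). The other Prrx1 probe sets did not follow this pattern. Probe set 1425526_a_at read 13102 in replicate 3, against 4527 and 19541 in replicates 1 and 2. Probe set 1425527_at read 4277 in replicate 3, against 1229 and 3885 in replicates 1 and 2. Both were low in replicate 1 alone, by 2.73-fold and 3.28-fold below replicate 3 after alignment. Probe set 1432129_a_at read 2792 in replicate 3, against 1471 and 4169 in replicates 1 and 2, again lowest in replicate 1. Probe set 1439774_at had another order, with 10546 in replicate 3, against 4741 and 5263 in replicates 1 and 2, so that replicate 3 was over 2-fold above both. The sixth probe set, 1458004_at, read 73.0 in replicate 3, against 50.02 and 140 in replicates 1 and 2, below background in each. Prrx1 makes transcripts that differ at their 3′ end, and which of them each probe set detects was not determined here.

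Set against the brightest probe set of the same array, 1425526_a_at had a ratio 2.29 times as high in replicate 3, and 3.95 times as high in replicate 2, as in replicate 1. For 1425527_at the ratio was 2.75 times as high in replicate 3 and 2.89 times as high in replicate 2 as in replicate 1. For 1432129_a_at these values were 1.5 and 2.59, and for 1439774_at they were 1.76 and 1.01. The Prrx1 probe sets therefore differed unequally between samples, and 1 number for this gene does not describe them. The beta-actin 3′ to 5′ ratio was highest in replicate 1 and lowest in replicate 2. This order was opposite to that of the ratios of 1425526_a_at, 1425527_at and 1432129_a_at, but not of 1439774_at. The Gapdh ratio had another order, with 14.1 in replicate 3, 21.5 in replicate 1 and 14.9 in replicate 2, opposite to that of 1439774_at alone. The part of a 3′ excess in the Prrx1 ratios was not tested.

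**Figure D2:**
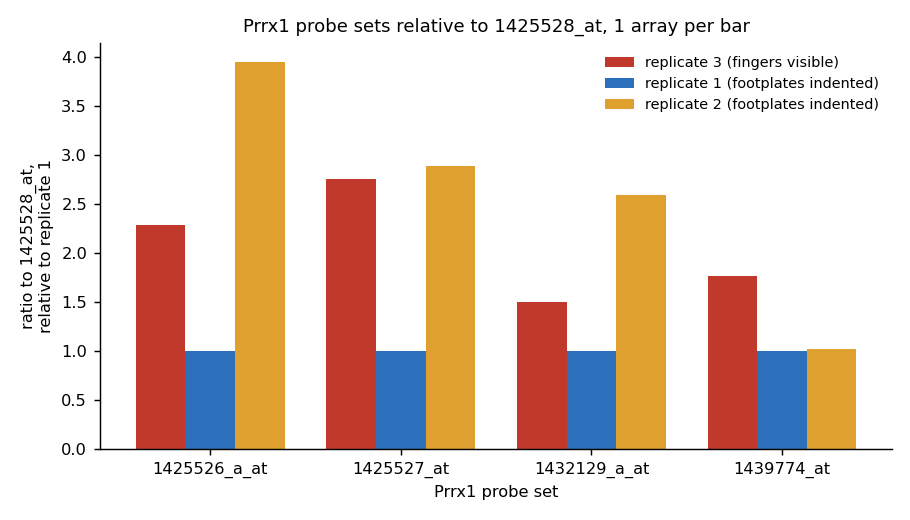
Ratio of the signal of 4 Prrx1 probe sets to that of 1425528_at on the same array, scaled so that replicate 1 is 1, with 1 bar per array and no error. The bars of replicate 2 reach 3.95, 2.89 and 2.59 for the first 3 probe sets and 1.01 for 1439774_at, for which replicate 3 stands at 1.76.

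Prrx2, the relative of Prrx1 that acts redundantly with it in limb and jaw, read 4335 in replicate 3, against 5897 and 6426 in replicates 1 and 2 (mean 5553 ± 1087, SD, n = 3). Replicate 3 was the lowest, and the whole range after alignment was 1.45-fold. This range was smaller than that of 4 of the 5 Prrx1 probe sets above background, whose ranges were 2.21-fold to 3.69-fold.

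Alx1, an aristaless-like factor of facial and limb mesenchyme, read 2988 in replicate 3, against 5947 and 3961 in replicates 1 and 2 on probe set 1435022_at (mean 4299 ± 1508, SD, n = 3). Replicate 3 was lowest and replicate 1 highest, 2.11-fold apart after alignment. Its second probe set, 1456454_at, read 147, below background, in replicate 3, against 309 and 293 in replicates 1 and 2. These were 0.74, 2.27 and 1.16 times the background of replicates 3, 1 and 2. With replicate 3 set at its background, the mean of replicates 1 and 2 lay at least 1.495-fold above it. As 1456454_at passed background only where it read higher, it adds no separate support to 1435022_at. Alx4, which restricts Shh to the posterior side of the limb bud, read close to background, at 391 in replicate 3, against 266 and 719 in replicates 1 and 2. These signals were 1.98, 1.96 and 2.84 times the background of replicates 3, 1 and 2, and the mean was 459 ± 234 (SD, n = 3).

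Pitx1, which gives the hindlimb its identity and acts upstream of Tbx4, read 1250 in replicate 3, against 1807 and 1500 in replicates 1 and 2 on 1449488_at (mean 1519 ± 279, SD, n = 3). Its range was 1.53-fold after alignment. The second Pitx1 probe set, 1419514_at, read 167 in replicate 3, against 125 and 179 in replicates 1 and 2, below background in each, although both probe sets are annotated to the same transcript accession.

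Shox2, which shapes the proximal limb skeleton, differed most between samples. Probe set 1438042_at read 11160 in replicate 3, against 2181 and 4628 in replicates 1 and 2 (mean 5990 ± 4642, SD, n = 3). Replicate 3 was 4.82-fold above replicate 1 and 2.66-fold above replicate 2 after alignment, and replicates 2 and 1, which share a landmark, themselves stood 1.81-fold apart. Its aligned log2 SD of 1.15 exceeded that of 96.6% of the 21612 probe sets above background in 3 of 3 samples. The second probe set, 1420559_a_at, read 132 in replicate 3, against 5.67 and 244 in replicates 1 and 2 and was below background in each, so only 1 probe set carries the Shox2 result. These probe sets are annotated to different sequence records, of which that of 1420559_a_at is a RefSeq transcript. Over 2-fold higher signal in replicate 3 than in both others was found in 2 of the 12 probe sets, of Shox2 and of Prrx1 (1439774_at), and in 1.06% of all probe sets above background in 3 of 3.

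Twist1, which is required for limb bud outgrowth and for skull sutures, read 11348 in replicate 3, against 10054 and 18346 in replicates 1 and 2 (mean 13249 ± 4461, SD, n = 3). Replicate 2 stood above both others, and after alignment the range was 1.56-fold. Twist2, also called Dermo1 and known from the dermis, read 7883 in replicate 3, against 4384 and 4417 in replicates 1 and 2 (mean 5561 ± 2010, SD, n = 3). Replicates 1 and 2 nearly coincided in deposited signal and stood 1.16-fold apart after alignment. On the aligned values replicate 3 was 1.69-fold and 1.97-fold above replicates 1 and 2. The highest sample thus differed between the Twist genes, and each rests on 1 probe set.

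The aligned log2 SD over the 3 samples had a median of 0.59 for the 12 probe sets, against 0.36 for all 21612, and 8 of the 12 lay above 0.36. Without replicate 1 these medians were 0.31 and 0.27. The 8 brightest probe sets, 1 per gene, had a median of 0.43, and 4 of them lay above 0.36. The smallest SDs were 0.18 for Prrx1 (1425528_at), 0.28 for Prrx2, 0.33 for Pitx1 and 0.35 for Twist1. A range over 2-fold was found in 7 of the 12 probe sets, 4 of them of Prrx1 and the others of Alx1, Alx4 and Shox2, against 28.0% of all. Probe sets of 1 gene are not independent, and without replicate 1 the count was 2, against 9.85% of all. Without replicate 3 it was 4, against 20.2%.

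**Figure D3:**
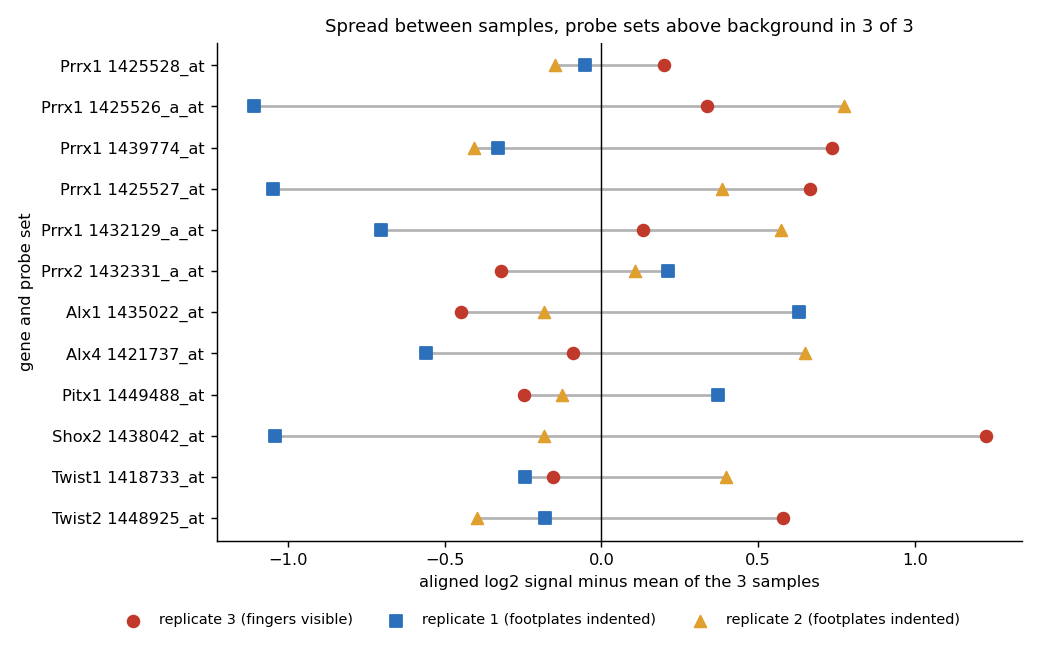
Aligned log2 signal of each sample minus the mean of the 3 samples, for the 12 probe sets above background in 3 of 3, with a grey line over the range. Shox2 spans the widest range, with replicate 3 at the high end and replicate 1 at the low end, and Prrx1 1425528_at the narrowest.

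The landmark contrast asks how replicate 3, with visible fingers, differed from the mean of replicates 1 and 2. Shox2 had a log2 difference of 1.84 ± 0.71 (SE from limma) and Twist2 of 0.87 ± 0.61. Prrx1 had 0.30 ± 0.60 on 1425528_at and 1.10 ± 0.60 on 1439774_at. Differences were below 0 for Alx1 (-0.67 ± 0.70), Prrx2 (-0.48 ± 0.60), Pitx1 (-0.37 ± 0.64), Twist1 (-0.23 ± 0.66) and Alx4 (-0.14 ± 0.80). Over the 8 brightest probe sets the median was -0.18, with 3 above 0, against a median of 0.03 over all probe sets above background in 3 of 3.

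None of the 13 probe sets tested passed limma's test with Benjamini-Hochberg adjustment over 29065 probe sets (adjusted p = 1 for each), and none had an unadjusted p under 0.05, which 2.08% of all probe sets had. Shox2 came nearest to that threshold, and its side of it depended on the setting. Its limma SE was 0.71 in the fit above, 0.64 among probe sets above background in 3 of 3 and 0.63 with a variance trend. The log2 difference was 1.84 in each. Across all probe sets limma called 0, against 86 with samples aligned on all probe sets and 1 among probe sets above background in 3 of 3. In data simulated for this contrast, with the settings that gave 0, it recovered 0 of 70 probe sets changed by 64-fold. The simulated noise used the observed SDs over the 3 samples, shuffled between probe sets. These SDs hold any real difference of replicate 3, so the simulated noise can exceed that of the data. The fit has 1 residual degree of freedom, and the landmark cannot be told apart from the doubtful sex label or any other property of that library.

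Each other sample set alone against the remaining ones gave differences of like size. In replicate 1 the log2 difference was -1.66 ± 0.50 for Prrx1 on 1425526_a_at and -1.57 ± 0.49 on 1425527_at, with unadjusted limma p of 0.0245 and 0.0261 and adjusted p of 0.337 and 0.345. These were 2 of 13 probe sets under an unadjusted p of 0.05, against 11.4% of all. Shox2 had -1.56 ± 0.74 in replicate 1, Alx4 -0.84 ± 0.56, Alx1 0.95 ± 0.48 and Pitx1 0.56 ± 0.47. In replicate 2 Prrx1 had 1.16 ± 0.81 on 1425526_a_at and 0.86 ± 0.60 on 1432129_a_at, Alx4 had 0.98 ± 0.50 and Twist1 0.60 ± 0.45, and 0 of 13 were under an unadjusted p of 0.05, against 5.05% of all. No probe set of these 8 genes was called by limma in any of the 3 contrasts, nor under any alternative tried. The 3 contrasts use the same 3 arrays, so they are not independent of each other.

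**Figure D4:**
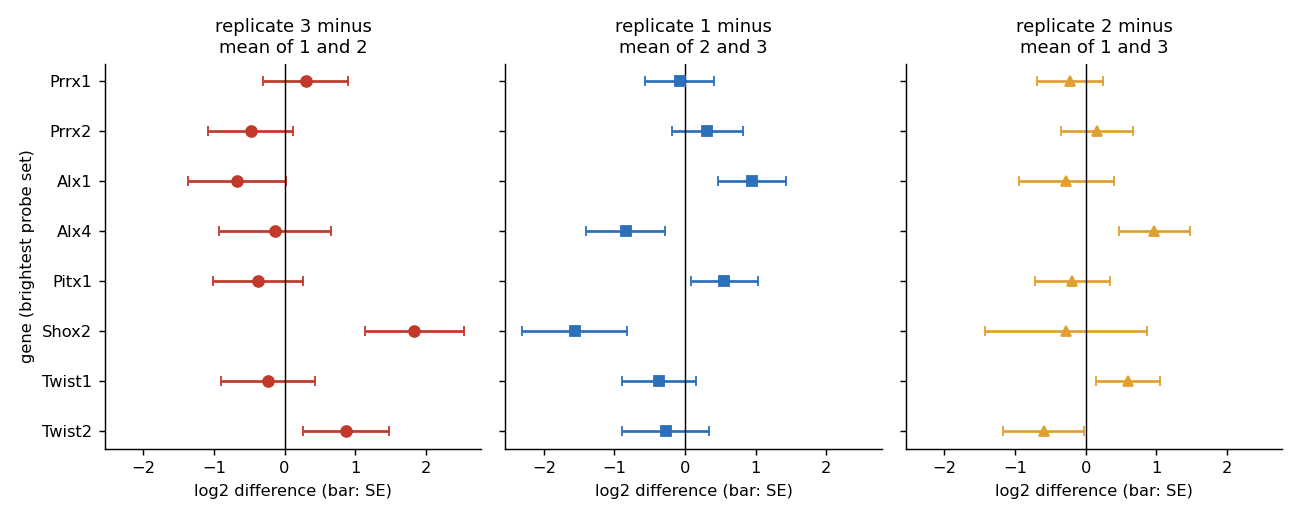
Log2 difference between each sample and the mean of the remaining pair, for the brightest probe set of each gene, with limma's SE as the bar. Shox2 lies at 1.84 in replicate 3 and at -1.56 in replicate 1, and the bars of Prrx1 and Prrx2 include 0 in all 3 panels.

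The partners of the Twist proteins were present throughout, with 7 of 7 E-protein and Id genes above background in 3 of 3 samples. The E-protein genes Tcf12 and Tcf4 read 47231 ± 5635 and 39751 ± 5086, and Tcf3 8422 ± 2672, while the inhibitor Id2 read 13200.4 ± 1643 (SD, n = 3 each). Id1 and Id3, further inhibitors, named after their values were seen, were lowest in replicate 3. Id1 read 3064 in replicate 3, against 4941 and 7795 in replicates 1 and 2, a log2 difference of -0.99 ± 0.63. Id3 read 4418 in replicate 3, against 7630 and 10598 in replicates 1 and 2, a log2 difference of -0.999 ± 0.61. Neither passed limma's test after adjustment. The log2 differences of Id2 and Id4 in replicate 3 were smaller, at -0.14 ± 0.60 and -0.14 ± 0.61. The related bHLH list had 4 of 11 above background in 3 of 3 samples. Hand2, a factor of posterior limb mesenchyme, read 5307 ± 355 and the tendon factor Scx 503 ± 255, with Tcf24 at 461 ± 144 and Tcf15 at 262 ± 21.5 (SD, n = 3). Mesp2, Tcf23 and Bhlha9 were above background in no sample.

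Other paired-type homeobox and Pax genes, of which Pax1 and Pax9 have a paired domain but no homeobox, were mostly below background. Of 23 measured, 1 was above background in 3 of 3 samples, 5 in some samples and 17 in none, against 8 of 8 for the genes followed here. Both sets were chosen with earlier results of these data known, so this contrast is not a test. The exception was Pax3, a factor of muscle and neural crest precursors, which read 1430 in replicate 3, against 545 and 350.2 in replicates 1 and 2. Of the epithelial-mesenchymal transition factors 5 of 8 were above background in 3 of 3, among them Snai2 (32532 ± 2282), Zeb1 (7078 ± 2704), Zeb2 (5864 ± 439) and Sox9 (802 ± 302), and Snai1 was above it in replicate 3 alone.

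The hindlimb list had 6 of 7. Isl1 (48464 ± 4187) and Tbx4 (7222 ± 1232), which act with Pitx1 in the hindlimb, varied little. The forelimb factor Tbx5 read 5275 in replicate 3, against 2523 and 16977 in replicates 1 and 2, and Tbx18 read 4142 in replicate 3, against 1134 and 1431. Of genes linked to Twist or Prrx function 19 of 20 were above background in 3 of 3, among them Vim (47362 ± 9072), Cdh11 (32368 ± 4182), Pdgfra (26410.4 ± 3794) and Postn (19259 ± 1822). In this list 8 genes had a positive and 11 a negative difference in replicate 3, with a median of -0.12.

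**Figure D5:**
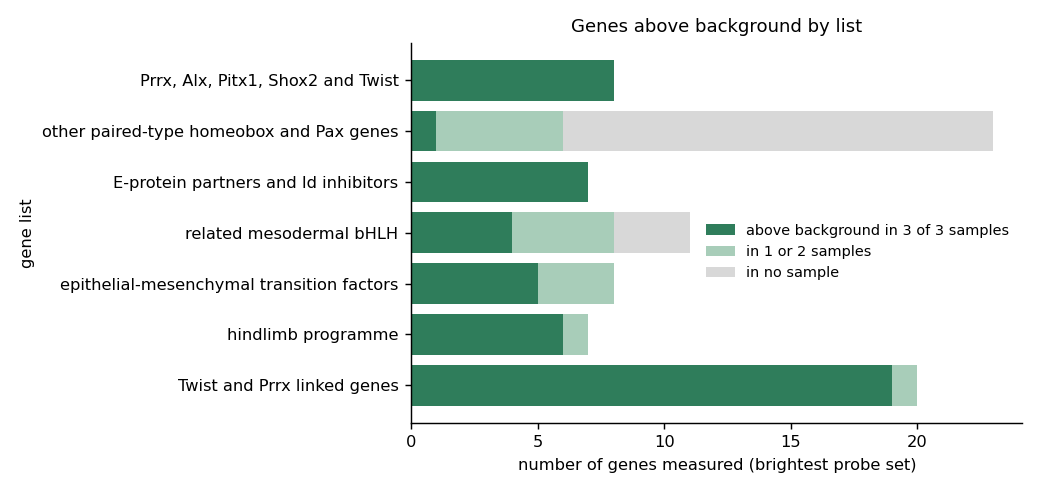
Number of genes measured in each list, split by whether their brightest probe set was above background in 3 of 3 samples, in some or in none. The 8 genes followed here and the 7 E-protein and Id genes all fall in the first class, against 1 of 23 other paired-type homeobox and Pax genes. Genes and lists were chosen with earlier results of these data known.

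Markers of mesenchyme, the tissue these factors are known from, were above background in 12 of 12 cases, among them Col3a1 (62804 ± 3772), Vim, Col1a2 (39979 ± 4218) and Cdh11. Their summed signal was 280812 in replicate 3, against 278566 in replicate 1 and 275433 in replicate 2. Single markers differed in both directions in replicate 3, with 7 above and 5 below 0 and a median log2 difference of 0.06, from -0.96 for Lum to 0.56 for Col1a1, both named after their values were seen. Dermal mesenchyme markers had 5 of 8, with summed signals of 61334 in replicate 3, against 48145 in replicate 1 and 57030.4 in replicate 2. Of this sum Sfrp2 made up 40261 in replicate 3, against 22664 and 30864 in replicates 1 and 2, while 2 of the 5 genes had a positive and 3 a negative difference in replicate 3, with a median of -0.23. Cartilage and bone had 4 of 11, with sums of 3805 in replicate 3, against 4683 in replicate 1 and 4594 in replicate 2, and Matn1, Comp and Ibsp were above background in no sample.

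Epithelial markers were above background in 11 of 11 cases and summed to 96095 in replicate 3, against 129995 and 112246 in replicates 1 and 2. Each had a negative log2 difference in replicate 3 (median -0.315) and a positive one in replicate 1 (median 0.48). Liver markers (4 of 9) summed to 9322 in replicate 3, against 115008 and 52672 in replicates 1 and 2. Skeletal muscle markers (6 of 11) summed to 3381 in replicate 3, against 25310 and 8036, and erythroid markers (6 of 7) to 2949 in replicate 3, against 12388 and 6539. Endothelial (7 of 9), macrophage (4 of 9), nerve and glia (5 of 7) and smooth muscle markers (6 of 11) had sums within 2-fold of each other across samples. The order of the liver, muscle and erythroid sums, highest in replicate 1 and lowest in replicate 3, was the reverse of that of Shox2. The part of these tissues in the differences of Shox2, Twist2, Alx1 or Prrx1 was not tested.

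Among 11005 other genes above background in 3 of 3 samples, those with the pattern over samples most like Shox2 were Sfmbt1, Chodl and Greb1l, at Euclidean distances of 0.03, 0.11 and 0.17 between centred log2 values. Sfmbt1 read 5733 in replicate 3, against 1145 and 2455 in replicates 1 and 2. With 3 samples a pattern has few ways to differ, and 4 genes lay within a distance of 0.2.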

How the data were processed

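Affymetrix arrays, 1 per embryo, measured RNA amplified in 2 rounds per the labels' protocols, for 3 samples of 1 group. The values the authors deposited are linear intensities made with GCOS, per the submitters' processing notes, with version and settings not given in the sources used here. Each sample had a 2% trimmed mean of 1500.0, which shows global scaling before deposit. Of 45101 probe sets 64 controls were set aside. A platform annotation named 1 gene for 34945 probe sets, several for 932 and none for 9160, and 34741 matched the RefSeq table of GRCm38.p6 by Entrez identifier, with 0 symbols changed. Nothing says whether the embryos shared a litter, so errors mix animal and technical spread, and the number of arrays limits precision.

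Signals below 1 were set to 1, log2 transformed and aligned on the median of the 21612 probe sets above background in 3 of 3 samples, since these medians differed by 0.227. A gene was represented by its probe set of highest mean signal. Contrasts were fitted with limma 3.58.1 in R 4.3.3 (lmFit, eBayes, two-sided, Benjamini-Hochberg) on the 29065 probe sets that passed background in some sample. The fit was tested on simulated data, with noise from the shuffled SDs over the 3 samples, in which a known set was altered. Of this set, 0 passed adjustment, while an unadjusted p under 0.05 was reached by 16 of 60 changed 2-fold, 62 of 70 changed 8-fold and 66 of 70 changed 64-fold.

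The 8 genes and the gene lists were chosen with earlier results of these data known. Lists covered other paired-type homeobox and Pax genes, E-proteins and Id inhibitors, related bHLH, epithelial-mesenchymal transition, hindlimb and Twist or Prrx linked genes, and markers of mesenchyme, dermis, cartilage and bone, epithelium, liver, skeletal muscle, erythroid, endothelial, macrophage, nerve and smooth muscle cells. From each list of transcription factors and from the linked and mesenchyme lists, up to 4 genes with the highest mean above background were named. Those above background in no sample were named where 5 or fewer. Named outside this rule were Snai1, Id1, Id3, Id4, Lum, Col1a1, Sfrp2, Matn1, Comp and Ibsp, and Xist and Eif2s3y. Pattern likeness was computed for the gene of largest SD alone. A planned comparison of protein sequences was not run, and promoter sequences from RefSeq were used instead. Alternatives covered background, alignment, floor, filter, variance trend and left-out samples.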

Additional observations from a re-analysis of the deposited data

How the results depend on the processing

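Of the 8 genes, 4 had all of their probe sets above background in 3 of 3 samples, so the count of 8 holds for the brightest probe set. With any sample left out, 12 to 13 probe sets and 8 genes were above background, and the median SD of the 12 probe sets ran from 0.31 (all probe sets 0.27, without replicate 1) to 0.56 (all probe sets 0.28, without replicate 2). The count of probe sets over 2-fold apart was 2 without replicate 1, 5 without replicate 2 and 4 without replicate 3, as fewer samples give a smaller range, and 6 or 7 under the other alternatives. Across all probe sets limma called 86 in the landmark contrast when samples were aligned on all probe sets, which moved the median difference in replicate 1 to 0.481, against 0.0802, and 1 among probe sets above background in 3 of 3. For replicate 1 it called 144, 511 and, with a variance trend, 557, and for replicate 2 the first of these gave 251. Under alignment on all probe sets, every probe set had the same limma SE, 1.148 in the landmark contrast and 0.9971 for replicate 2. The cause of the calls was not tested, and none of them was among the 8 genes. Another scaling turned the sign of 7 differences of their probe sets. With alignment on all probe sets, Twist1, Prrx1 (1425528_at) and Twist2 in replicate 1 became 0.04, 0.32 and 0.13. Under the same alignment, Prrx2 and Alx1 (1456454_at) in replicate 2 became -0.15 and -0.04. With the sample distributions made equal (quantile normalization), Prrx1 (1425528_at) and Alx1 (1456454_at) in replicate 2 became 0.04 and -0.00049. In the landmark contrast, Twist1 and Alx4 had 0.09 and 0.47 without replicate 2, and Prrx1 had -0.44 on both 1425526_a_at and 1432129_a_at without replicate 1. No paired analysis was possible because the samples form 1 group.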
